A study of Mus musculus with 6 samples.

Results

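The quantity described here is the effect of TIARP deficiency in neutrophils minus its effect in untreated macrophages, gene by gene. It was taken as KO minus WT on the log2 signal of splenic neutrophils, minus KO minus WT on the log2 signal of peritoneal macrophages that had received no TNFα, and is called the cell-type difference below. It was computed from 4 of the 6 single-colour Agilent mouse arrays of the study, for the 20815 of 34741 genes whose probe lay well above background on all 4 arrays. All mice were C57BL/6, either TIARP-/- (KO) or TIARP+/+ (WT), and TIARP is the protein of Steap4. The 4 arrays held, 1 each, Ly6G+ neutrophils of KO mice, Ly6G+ neutrophils of WT mice, macrophages of KO mice and macrophages of WT mice. Neutrophils had been taken from spleen with magnetic beads, and macrophages from the peritoneal cavity 3 days after thioglycollate medium. The other arrays held KO and WT macrophages given TNFα for 24 h, and served as macrophage arrays that the cell-type difference does not use. The labels number 3 mice for every array. Whether their RNA was pooled, the mice's age, and which part of the gene was deleted are not given in the sources used here. Thioglycollate draws blood cells into the peritoneal cavity, and splenic cells taken by 1 surface marker can carry other splenic cells along, so each array reports on a preparation rather than on a pure cell type. In such bulk RNA, fewer cells of a type and less RNA per cell cannot be told apart.

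TIARP, also called STEAP4, is a membrane metalloreductase that reduces iron and copper, is induced by TNFα, and is known in mice for restraining inflammation. Neutrophils and macrophages are both phagocytes of myeloid origin. Neutrophils are short-lived cells guided by CXC chemokines through the receptors Cxcr1 and Cxcr2, and macrophages are longer-lived cells that clear debris, present antigen and make many of those chemokines.

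A gene was called higher when its cell-type difference was at least 1 on the log2 scale, a 2-fold difference, and lower when it was -1 or less. By this rule 636 genes (3.06% of those tested) were higher and 1123 (5.4%) were lower, so 63.8% of the 1759 genes past the rule were lower. The median over all genes was -0.08, the SD was 0.63, and the middle 90% of genes lay between -1.06 and 0.79. Past 4-fold there were 58 higher and 341 lower genes. The rule cut through a continuous distribution, with 276 genes just inside it (sizes of 1 to 1.1) and 389 just outside (sizes of 0.9 to 1). With 1 array in every group there was no replicate to set a difference against, no test was made, and "higher" and "lower" describe these arrays.

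Each called gene was sorted by which preparation carried the 2-fold change. In neutrophils, KO exceeded WT at least 2-fold for 599 genes (2.88%) and lay at least 2-fold below WT for 668 (3.21%). In untreated macrophages the counts were 675 (3.24%) and 149 (0.716%). Among the 636 higher genes, 300 (47.2%) had a 2-fold change in neutrophils alone, 68 in macrophages alone, and 250 in neither preparation alone. Among the 1123 lower genes, 411 (36.6%) had it in neutrophils alone, 345 (30.7%) in macrophages alone, and 254 in neither. In 110 genes (0.528%) the preparations changed 2-fold in opposite directions, 12 with KO higher in neutrophils and 98 with KO higher in macrophages. A 2-fold macrophage change was therefore less frequent among the higher than among the lower genes. Smaller macrophage changes also entered the higher genes. The 250 with a 2-fold change in neither preparation had median changes of 0.70 in neutrophils and -0.56 in macrophages. Across genes, which are not independent replicates and share their arrays, the neutrophil and macrophage changes had a Pearson r of 0.114 and a Spearman rho of 0.154 (20815 genes).

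**Figure D1:**
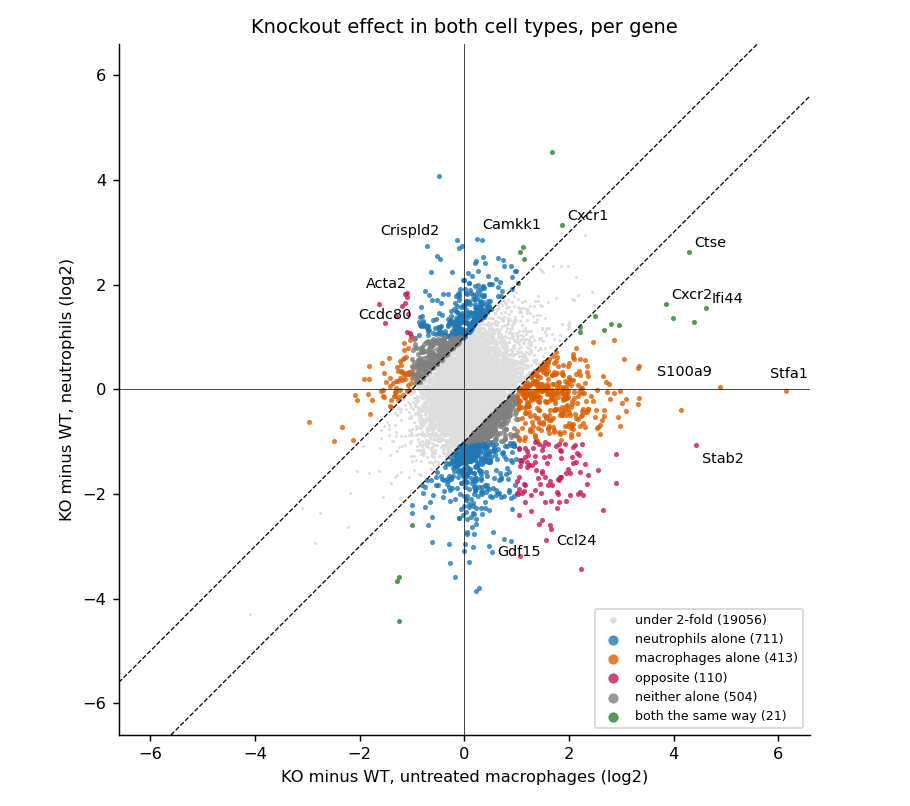
KO minus WT in neutrophils (vertical axis, log2) against KO minus WT in untreated macrophages (horizontal axis, log2) for 20815 genes, with dashed lines where the cell-type difference is 1 and -1 and colours for the preparation that carried the 2-fold change. Genes that changed in macrophages alone lie mostly to the right, where KO macrophages were higher, and the opposite genes lie mostly at lower right (98 of 110).

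The technical scatter of a cell-type difference was smaller than the 2-fold rule. Repeated spots of 1 probe gave it a median SD of 0.14 (log2) over 246 probes, and the scanner software's error model a median error of 0.29 with a 95th percentile of 0.43. Before scaling, the 8 measurable spike-in probes had a mean cell-type difference of 0.10 ± 0.17 (SD over probes). None of these errors covers differences between mice. Other probes of the called genes fell on the same side in 80.7% of 192 probes for higher genes and 68.6% of 226 probes for lower genes, and were also past 2-fold in 40.1% and 32.3%. Calls were more frequent among dim genes, with 12.8% past the rule among the 5204 dimmest genes and 4.05% among the 5204 brightest. The labelled cell types were checked against markers. Mature neutrophil markers, 12 of 12 well above background on every array, had a summed scaled signal of 2585 and 2027 on the KO and WT neutrophil arrays, against 379.0 and 146.0 on the KO and WT macrophage arrays. Macrophage markers summed to 278.1 and 494.8 on the KO and WT neutrophil arrays, against 1323 and 1120 on the KO and WT macrophage arrays. Summed signals here and below cover every marker of a list on the array, including those not well above background. Signals named below are the deposited processed signals before scaling, while every log2 difference is scaled.

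Steap4 had a signal of 36.0 on the KO and 48.8 on the WT neutrophil array, and of 83.1 on the KO and 174.8 on the WT macrophage array. KO minus WT was -0.39 in neutrophils and -0.84 in macrophages, so the cell-type difference was 0.45 and not past the rule. With TNFα the KO signal was 12.8, not well above background, against 49.2 on the WT array. The probe lies at chr5:7981239-7981298 (mm9), and it was lower on each KO array than on its WT counterpart. Without knowing which part was deleted, the probe does not check the labels. Of the 20 measured neighbours of Steap4 on chromosome 5, 0 were past the rule, with a median cell-type difference of -0.05, close to the -0.08 of all genes.

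The receptors and ligands that guide neutrophils differed in which preparation changed more. Cxcr1, a receptor for neutrophil-attracting chemokines, had signals of 2058.3 (KO) and 240.8 (WT) in neutrophils and 78.4 (KO) and 25.1 (WT) in macrophages. Both changes were upward in KO, 3.14 in neutrophils and 1.88 in macrophages on the log2 scale, and the cell-type difference of 1.27 was past the rule on the neutrophil side. For Cxcr2, which shares ligands with Cxcr1, the order was turned round. Its signals were 3942.7 (KO) and 1318.6 (WT) in neutrophils and 371.5 (KO) and 30.3 (WT) in macrophages, changes of 1.63 and 3.85, with a cell-type difference of -2.22. That value was -0.83, within the 2-fold limits, with normexp background correction. Among the ligands, Cxcl1 had changes of 1.26 in neutrophils and 0.83 in macrophages (cell-type difference 0.43) and Cxcl2 of 0.88 and 1.14 (-0.26), so neither was past the rule. Against TNFα-treated macrophages Cxcl2 was at 1.35 and Cxcl1 just past 2-fold, both on the neutrophil side. Of 20 measured chemoattractant receptors, 2 were higher (Cxcr1 and the chemokine receptor Ccr1 at 1.23) and 3 lower (Cxcr2, Cxcr5 at -1.39 and Ccr6 at -1.08), with a list median of -0.07. Cxcr5 and Ccr6 are lymphocyte homing receptors found on B cells. Ccr1, Cxcr5 and Ccr6 were within 2-fold with normexp correction.

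Chemokine genes fell on both sides. Ccl4, an attractant of monocytes and T cells, had signals of 14312.9 (KO) and 2786.9 (WT) in neutrophils, against 4231.1 (KO) and 3750.7 (WT) in macrophages. The KO neutrophil signal stood well above the other 3, and the cell-type difference was 2.00. Its neighbour in function Ccl3 was at 1.17 and Ccl9 at 1.39. Cxcl12, a stromal chemokine that retains leukocytes in bone marrow, had 77.6 (KO) and 33.3 (WT) in neutrophils and 684.8 (KO) and 2287.8 (WT) in macrophages. It was higher in KO neutrophils and lower in KO macrophages, with a cell-type difference of 2.78, and another probe gave 1.76. On the other side, Ccl24, an eosinophil attractant, had 70.0 (KO) and 462.4 (WT) in neutrophils and 2323.9 (KO) and 861.2 (WT) in macrophages, and a cell-type difference of -4.34. Cxcl13, the B-cell attractant, was at -2.31, from a change of 1.85 in macrophages and -0.45 in neutrophils. Of 10 CC chemokines 3 were higher and 2 lower (median 0.30), and of 10 CXC chemokines 1 was higher and 1 lower (median -0.08).

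Among cytokines, Csf1, the growth factor of macrophages, was the highest at 1.96, with 1506.0 (KO) and 662.2 (WT) in neutrophils and 2387.5 (KO) and 4639.8 (WT) in macrophages. The arrays of both macrophage conditions had less Csf1 in KO, and 2 further probes of the gene gave 1.97 and 2.17. Gdf15, a stress-induced member of the TGF-beta family, was the lowest at -3.46. Its signal was 1304.2 (KO) against 10668.1 (WT) in neutrophils, whereas KO and WT macrophages were alike at 15494.7 and 13115.2. Il1b, which encodes the inflammatory cytokine IL-1 beta, was at -1.05, carried by a macrophage change of 1.53, and moved inside 2-fold under several scalings. Tnf was at 0.79 and not past the rule. Il6 was near background in KO and WT neutrophils (signals of 2.6 and 2.7) and has no cell-type difference. In all 2 of 15 cytokines were higher and 4 lower, with a median of -0.20.

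The genes with the largest higher values had little in common in their known function. Crispld2, a secreted protein that binds endotoxin, was the highest among the brighter genes, at 3.45 (probe at chr8:122575417-122575476, mm9). Its signals were 3775.0 (KO) and 580.5 (WT) in neutrophils and 99.3 (KO) and 189.9 (WT) in macrophages, and a further probe gave 3.44. Camkk1, a kinase that activates calmodulin-dependent kinases, had 2419.4 (KO) and 341.3 (WT) in neutrophils while KO and WT macrophages were at 623.7 and 616.5, a cell-type difference of 2.62. Rab44, a large Rab GTPase known from granule secretion in mast cells, had 6254.6 (KO) and 1369.5 (WT) in neutrophils and was at 2.47. Sntb2, a syntrophin, was at 2.16 and Igfbp6, which binds insulin-like growth factors, at 2.00. For Camkk1 and Rab44 the KO neutrophil array stood above the other 3, and for Sntb2 and Igfbp6 the WT neutrophil array stood below the other 3 after scaling. In all 4 genes KO and WT macrophages differed by less than 2-fold.

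A second set among the highest values were genes of the stroma. Acta2, smooth muscle actin, had 1240.1 (KO) and 359.5 (WT) in neutrophils, against 2840.8 (KO) and 7082.3 (WT) in macrophages, so the preparations changed in opposite directions and the cell-type difference was 2.92. Ccdc80, a matrix protein, was at 2.78, with 293.2 (KO) and 96.8 (WT) in neutrophils and 1787.0 (KO) and 4602.1 (WT) in macrophages. Serpinh1, a chaperone of collagen, was at 2.13, where both neutrophil signals were dim (35.2 in KO and 17.2 in WT) and the macrophage signals were 5623.2 (KO) and 13633.4 (WT). Aebp1, a collagen-binding protein, was at 2.01. The collagen genes Col1a1 and Col1a2 were at 1.74 and 1.16, with macrophage changes past 2-fold (-1.11 and -1.08) and neutrophil changes under it (0.62 for Col1a1). The mesothelial and fibroblast markers, of which 3 of 10 were measurable on all 4 arrays, had 2 higher and 0 lower and a median of 1.16. The summed scaled signal of all 10 was 1.27 and 0.988 on the KO and WT neutrophil arrays. On the KO and WT macrophage arrays it was 130.1 and 236.1. The markers were thus near 0 in neutrophils and lower on the KO than on the WT macrophage array, and their part in the stromal genes' values was not tested.

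**Figure D2:**
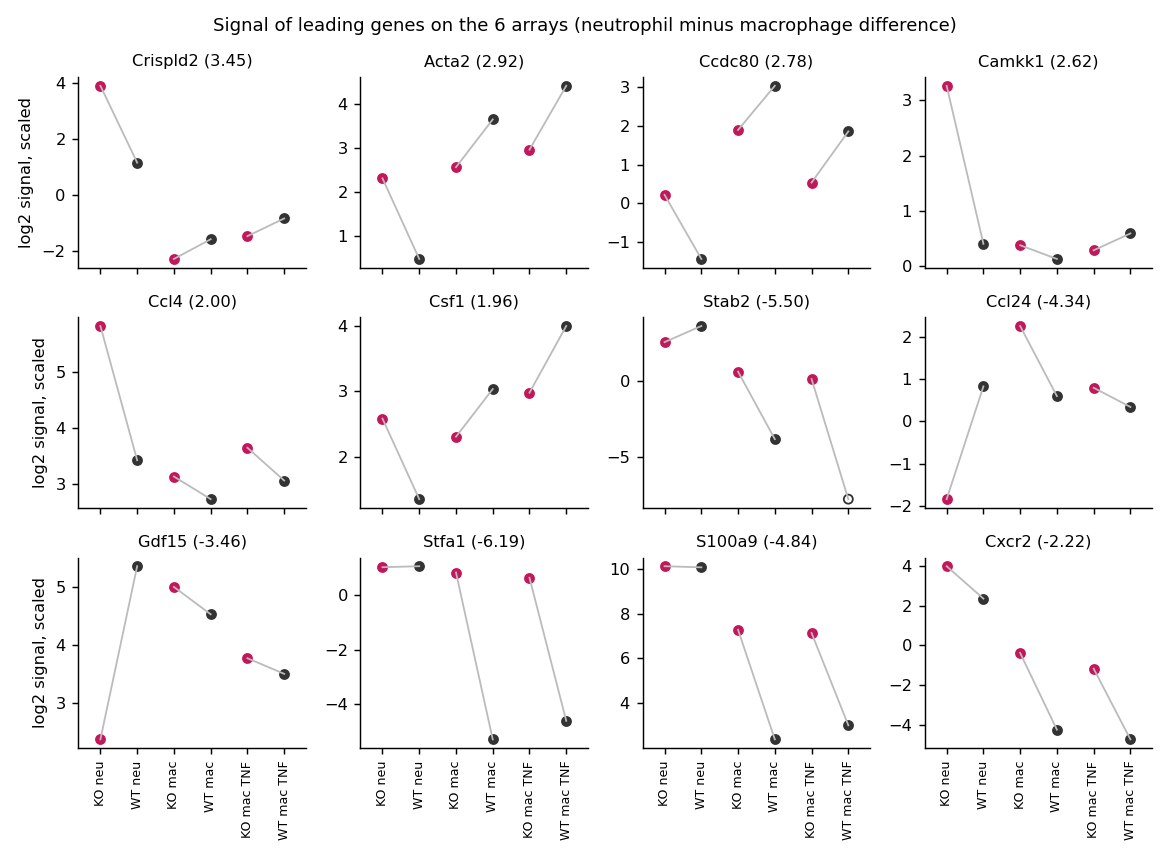
Scaled log2 signal (vertical axes, each panel with its own range) of 12 genes on the 6 arrays, KO in red and WT in black, with open circles where a probe was not well above background and the cell-type difference in the panel title. Crispld2, Camkk1 and Ccl4 stand apart on the KO neutrophil array, Acta2, Ccdc80 and Csf1 slope in opposite directions in the 2 preparations, and Stfa1, S100a9 and Cxcr2 are lowest on both WT macrophage arrays.

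Macrophage genes lay on the lower side, mostly through the neutrophil preparation. Of 13 measured macrophage markers, 8 were lower and 0 higher, where 5.4% of all genes were lower, with a median of -1.19 for KO minus WT in neutrophils and 0.37 in macrophages. In neutrophils 8 of 13 were at least 2-fold lower in KO, and in macrophages 0 of 13. The complement genes C1qc, C1qb and C1qa were at -1.84, -1.65 and -1.73, the Fc receptor Fcgr1 at -1.71 and Adgre1, the F4/80 antigen, at -1.63. Cd5l, a secreted macrophage protein that inhibits apoptosis, had 2814.4 (KO) and 19120.6 (WT) in neutrophils and 65575.1 (KO) and 52380.6 (WT) in macrophages, and was at -3.27. Genes of splenic red pulp macrophages, which recycle iron from red cells, were also lower in 4 of 9 (median -0.60): Cd5l, the transcription factor Spic at -1.67, the iron exporter Slc40a1 at -1.73 and haem oxygenase Hmox1 at -1.53. Both preparations made up the value of Slc40a1, with changes of -0.855 in neutrophils and 0.879 in macrophages. Siglec1 alone of that list was higher, at 1.05, and it reversed to -0.68 against TNFα-treated macrophages. The summed scaled signal of the red pulp list was 224.8 (KO) and 486.1 (WT) in neutrophils, against 375.7 (KO) and 297.9 (WT) in macrophages. The neutrophil preparation of KO mice thus held less signal of macrophage genes than that of WT mice, and the part of macrophages in it was not tested.

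Further lower genes with a change in neutrophils alone were spread over metabolism and signalling. Slc27a1, a fatty acid transporter, had 954.8 (KO) and 6734.9 (WT) in neutrophils, with KO and WT macrophages at 3145.0 and 3262.2, and was at -2.95. Tiam1, an activator of the GTPase Rac, was at -2.78 and Rgcc, a cell cycle regulator that responds to complement, at -2.66. In the lipid and cholesterol list 5 of 25 were lower and 0 higher (median -0.18), among them Apoe at -1.51, the sterol-sensing receptor Nr1h3 at -1.25 and Pparg, the fatty acid-sensing receptor, at -1.14. The heat shock genes Hspa1a and Dnajb1 were at -2.03 and -1.24, and were the only members lower among 13 (median -0.28). Of 18 stress response genes 2 were lower, Chac1, a glutathione-degrading enzyme, at -2.13 and Xbp1, a regulator of the secretory pathway that stands also among the plasma cell markers, with a change of -1.01 in neutrophils and 0.10 in macrophages. For all of these the macrophage change was under 2-fold without TNFα.

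Several neutrophil genes lay on the lower side as well, through the macrophage preparation. S100a9, an abundant calcium-binding protein of neutrophils, was nearly equal in KO and WT neutrophils, at 278975.1 and 278235.2, and was 74934.0 on the KO against 2969.3 on the WT macrophage array. The cell-type difference was -4.84, from a macrophage change of 4.89. Its partner S100a8 was at -1.85 (-0.95 against TNFα-treated macrophages) and Ly6g, the antigen used to take the neutrophils, at -1.64. Of 12 mature neutrophil markers 5 were lower and 1, the histidine decarboxylase Hdc at 1.37, was higher. The list's median was 0.15, and its medians of KO minus WT were 0.97 in neutrophils and 0.90 in macrophages. The summed signals of this list, given above, were higher in KO in both preparations. Such sums are weighted to bright members, S100a9 among them. The list's median scaled log2 signal was 5.64 (KO) and 4.12 (WT) in neutrophils, and 1.57 (KO) and 0.86 (WT) in macrophages. The part of neutrophils in the macrophage preparation was not tested.

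The stefins, small inhibitors of cysteine proteases that in mice form a gene cluster on chromosome 16 and are made by neutrophils, had the lowest list median, -2.56 (6 of 9 lower, 0 higher, against 5.4% and 3.06% of all genes). Stfa1 had the lowest value of the list, -6.19 (probe at chr16:36285398-36285457, mm9). Its signals were 516.0 (KO) and 546.4 (WT) in neutrophils and 865.5 (KO) and 14.3 (WT) in macrophages. The WT macrophage array alone was low, and with TNFα the signals were 619.6 (KO) and 20.8 (WT). Stfa2l1 followed at -3.28, Stfa2 at -3.26, Cstdc5 at -2.78 and Cstdc4 at -2.56. Cst7, cystatin F of natural killer and myeloid cells, was at -1.50, and its macrophage change of 1.18 was -0.15 with TNFα. The broadly expressed cystatins Cstb (-0.25) and Cst3 (-0.56) were not past the rule. Stefin genes resemble each other, and whether their probes can be told apart was read from the letters. The probe of Stfa3, which was not past the rule, shares 22 letters in a row with that of Cstdc4 and closely resembles that of Cstdc5. It is shown with Cstdc5 because the values differ. The 30 letters match at 27 positions, and capitals mark the 3 that differ.
Cstdc5: actGacaaaaccaagGAtgatgagctgacc
Stfa3: actAacaaaaccaagACtgatgagctgacc
The Cstdc5 probe (chr16:36359525-36359584, mm9) had 2600.8 (KO) and 2773.8 (WT) in neutrophils, and 1626.9 (KO) and 287.3 (WT) in macrophages. The Stfa3 probe (chr16:36450693-36450752) had 144.2 (KO) and 122.4 (WT) in neutrophils, and 474.5 (KO) and 441.5 (WT) in macrophages. Probes with this much in common thus gave cell-type differences of -2.78 and -0.05. How far each also bound RNA of other stefins was not tested.

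The macrophage side of these genes could be looked at in the arrays with TNFα, which the cell-type difference does not use and which share no array with the untreated ones. Across 20179 genes measured on all 6 arrays, KO minus WT without and with TNFα had a Pearson r of 0.771 and a Spearman rho of 0.680. These are correlations across genes, and the labels number the mice of both conditions alike. With TNFα, KO exceeded WT at least 2-fold in 1184 of these genes (5.87%) and lay at least 2-fold below WT in 265 (1.31%). Of the lower genes that changed in macrophages alone, 277 of 320 (86.6%) were also at least 2-fold higher in KO with TNFα, and of the lower genes that changed in opposite directions 56 of 69 (81.2%). Of the higher genes that changed in macrophages alone, 38 of 62 (61.3%) kept a 2-fold change in the same direction. When the TNFα-treated arrays replaced the untreated ones, sharing the neutrophil arrays, 368 of 598 higher and 887 of 1025 lower genes were again past the rule on the same side, and 11 and 8 had the opposite sign. Of the 345 lower genes carried by macrophages alone, 77.4% were at least 2-fold brighter in neutrophils than in untreated macrophages in the mean of KO and WT after scaling, against 23.9% of all genes tested. Brightness was read from the same 4 arrays as the rule, so this is a description only.

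**Figure D3:**
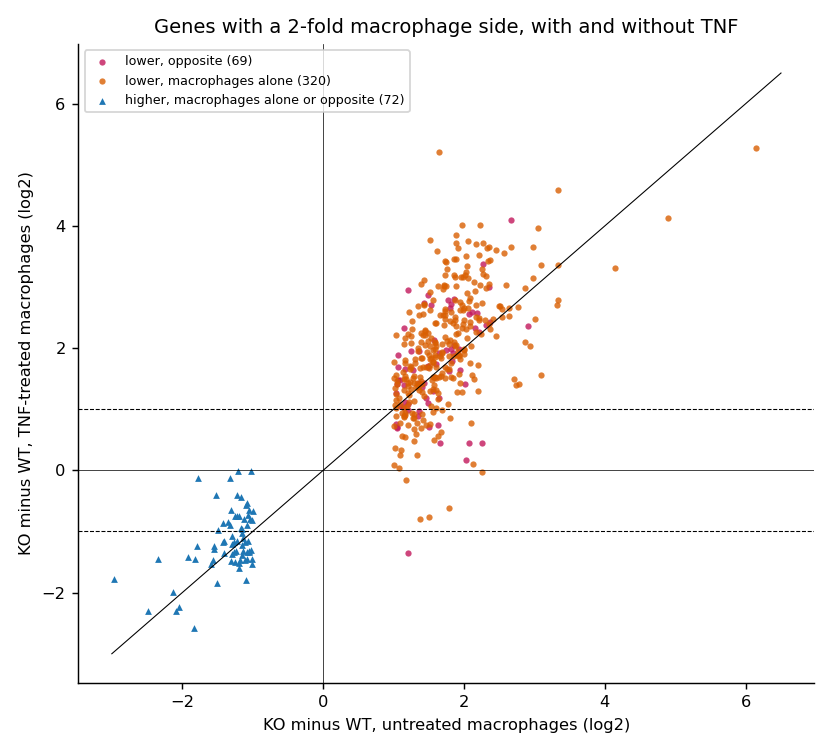
KO minus WT in TNFα-treated macrophages (vertical axis, log2) against KO minus WT in untreated macrophages (horizontal axis, log2) for called genes whose macrophage change was at least 2-fold and which were measured with TNFα. Of the lower genes changed in macrophages alone, 277 of 320 lie above the upper dashed line at 1, and 38 of 62 higher genes changed in macrophages alone lie below the lower one at -1.

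Other macrophage-side genes belonged to further groups. Asprv1, a protease best known from skin, was at -2.88, with 616.9 (KO) and 71.8 (WT) in macrophages and 4004.3 (KO) and 3017.9 (WT) in neutrophils. Ifi44, an interferon-induced gene, had 534.9 (KO) and 25.5 (WT) in macrophages and 144.8 (KO) and 50.8 (WT) in neutrophils, so it was higher in KO in both and was at -3.06. It was the lowest of 24 interferon-stimulated genes, of which 4 were lower, 0 higher, and the median was -0.26, where 5.4% of all genes were lower. In macrophages 1 of the 24 was at least 2-fold higher in KO. Zbp1 (-1.44) and Bst2 (-1.35) of that list were lower with a 2-fold change in neutrophils alone. Clec10a and Chil3, lectins of alternatively activated macrophages, were at -2.59 and -1.75, and Chil3 is also made by neutrophil precursors. The adhesion molecule Cadm1 was at -2.71. In Asprv1, Ifi44, Clec10a, Chil3 and Cadm1 the neutrophil change was smaller in size than the macrophage change.

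Genes that changed in opposite directions included a scavenger receptor, an antibody receptor and ribonucleases. Stab2, a scavenger receptor of sinusoidal endothelium, had the largest value among the brighter genes, -5.50 (chr10:86303982-86304041, mm9). Its signals were 1480.5 (KO) and 3184.9 (WT) in neutrophils and 737.4 (KO) and 40.0 (WT) in macrophages. With TNFα it was 431.6 in KO and 2.3, not well above background, in WT macrophages. A second tested probe of Stab2 gave -1.15, and gave -0.92 against TNFα-treated macrophages, within 2-fold. Fcgrt, which protects antibodies and albumin from degradation, had 924.9 (KO) and 2010.2 (WT) in neutrophils, against 4342.9 (KO) and 1795.4 (WT) in macrophages, and was at -2.58. The ribonucleases of the Ear family, found in eosinophils and in some macrophages of the mouse, were lower too. Rnase2a had 540.0 (KO) and 1369.4 (WT) in neutrophils and 512.8 (KO) and 208.6 (WT) in macrophages, a cell-type difference of -2.83. Ear12, Ear10, Ear2 and Ear1 were at -2.45, -2.40, -2.30 and -2.24, so 5 of 6 measured members, all on chromosome 14, were lower, and Ear6 at -0.86 was not past the rule. Probes of any 2 of them shared at most 23 letters in a row. Siglecf, the surface lectin that marks eosinophils, went to the other side, at 2.41, with 711.6 (KO) and 246.8 (WT) in neutrophils and 513.8 (KO) and 1073.1 (WT) in macrophages. Of 6 measured eosinophil markers 2 were lower and 1 higher. The summed scaled signal of the 8 on the array was 22.3 (KO) and 52.9 (WT) in neutrophils. In macrophages it was 6.43 (KO) and 5.93 (WT), and the part of eosinophil markers in these values was not tested.

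Antibody genes were lower almost throughout. Of 67 tested probes described in the files as immunoglobulin, a set gathered after the values were seen, 62 (92.5%) were lower and 0 higher, against 5.4% of all genes. Their median cell-type difference was -2.62, from a median of -1.82 in neutrophils and 0.76 in macrophages. Their median signal was 3019.2 (KO) and 10800.1 (WT) in neutrophils, but 57.1 (KO) and 36.2 (WT) in macrophages. The macrophage changes were thus mostly between dim signals. With TNFα 50 of the 67 were well above background on the WT array. Heavy chain probes were lower in 17 of 18, kappa chain probes in 42 of 46 and lambda chain probes in 3 of 3. Of the 67, 65 were lower in KO than in WT neutrophils to any degree and 59 higher in KO than in WT macrophages, and with TNFα 43 of 48 were higher in KO. The median change over all genes was near 0 in each, at -0.02 in neutrophils, 0.05 in macrophages and 0.09 with TNFα. The constant regions are shown because they stand for whole antibody classes, as the middle 30 letters of each probe.
Immunoglobulin heavy constant mu: tgtggaagactggaataacaggaaggaatt
Immunoglobulin kappa constant: tcaacttcacccattgtcaagagcttcaac
Immunoglobulin lambda constant 2: gccagcagcttcctacatttgacatcggac
The mu probe (chr12:114659630-114659689, mm9) had 79634.2 (KO) and 208457.0 (WT) in neutrophils and 1839.4 (KO) and 1011.4 (WT) in macrophages, and was at -2.44. The kappa probe (chr6:70676692-70676751) had 126529.4 (KO) and 254127.3 (WT) in neutrophils, against 2698.5 (KO) and 1542.2 (WT) in macrophages, changes of -0.96 and 1.04. The lambda probe (chr16:19198704-19198763) was at -2.98. All 3 were far brighter in the neutrophil preparations than in the macrophage preparations, as all 67 were at least 2-fold. Immunoglobulin probes resemble each other, and 11 of the 67 shared 30 or more letters in a row with another of them. In the heavy chain interval on chromosome 12 (chr12:114496985-117238485), 19 of 29 further tested probes were also lower, with a median of -2.21. Only 2 of these 29 had a RefSeq symbol other than a Gm, Rik, LOC or similar name. Whether the others measure antibody genes was not tested. In the wider interval spanned by the kappa probes (chr6:43031517-70676751), 18 of 162 further tested probes were lower and 5 higher, with a median of -0.10. A single kappa probe sets the start of that interval, and the next begins at chr6:67675577. Most of the interval thus lies outside the other kappa probes, and the count does not describe their neighbours alone. Outside the heavy chain interval 4.22% of the genes of chromosome 12 were lower, against 8.32% of the whole chromosome. The interval was drawn around the heavy chain probes, so these shares only describe.

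Antibodies are made by B cells and, in bulk, by plasma cells. Of 7 plasma cell markers 6 were lower and 0 higher (median -1.47). Derl3, part of the machinery that exports misfolded proteins, had 961.1 (KO) and 3186.6 (WT) in neutrophils and 94.5 (KO) and 53.6 (WT) in macrophages, and was at -2.73. Mzb1 was at -2.40 and the surface marker Sdc1 at -2.21. Of 9 B-cell markers 5 were lower and 0 higher (median -1.57), with medians of -0.02 in neutrophils and 1.58 in macrophages. Cd79b, a chain of the antigen receptor, had 54109.9 (KO) and 62798.6 (WT) in neutrophils and 3844.8 (KO) and 1154.0 (WT) in macrophages, and was at -2.14. Ms4a1, the CD20 antigen, was at -2.02 and the B-cell factor Ebf1 at -1.90. Vpreb3, a protein that binds antibody chains inside B cells, was at -2.74 and H2-Ob, which tunes antigen loading in B cells, at -2.02. The summed scaled signal of the B-cell markers was 576.0 (KO) and 569.5 (WT) in neutrophils, against 17.5 (KO) and 6.21 (WT) in macrophages. That of the plasma cell markers was 264.3 (KO) and 703.2 (WT) in neutrophils, against 70.9 (KO) and 66.4 (WT) in macrophages. Of the B-cell markers 0 of 9 were at least 2-fold lower in KO neutrophils and 5 of 9 at least 2-fold higher in KO macrophages. Of the plasma cell markers 4 of 7 were 2-fold lower in KO neutrophils and 3 of 7 were 2-fold higher in KO macrophages, among them Mzb1, with changes of -0.71 in neutrophils and 1.69 in macrophages. The part of these cells in the values was not tested.

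Some red cell genes were on the higher side. Of 10 measured erythroid markers 3 were higher, where 3.06% of all genes were, and 0 lower. In all 6 lay above 0 and 4 below, and Epor, the erythropoietin receptor, was the lowest at -0.81 with a change of -1.04 in neutrophils. The median was 0.83, from a median of 1.23 in neutrophils and 0.11 in macrophages. Slc4a1, the anion exchanger of red cells, had 1433.1 (KO) and 426.4 (WT) in neutrophils, while KO and WT macrophages were dim at 28.4 and 29.5, and it was at 1.62. The carbonic anhydrases Car2 and Car1 were at 1.42 and 1.34. Globin Hbb-bt was at -0.72 and not past the rule, as KO exceeded WT in both preparations, by 1.28 in neutrophils and 2.00 in macrophages. With TNFα its macrophage change was -0.87, and the cell-type difference against those arrays was 2.15. The list's summed scaled signal was 1507 (KO) and 621.7 (WT) in neutrophils, against 15.6 (KO) and 11.8 (WT) in macrophages. Over the 16 markers on the array, the median log2 scaled signal in neutrophils was 0.01 (KO) and 0.13 (WT). Among the brighter probes alone the list's median cell-type difference was -0.24. In haem synthesis Fech, the ferrochelatase, was at 1.47 and Alas1 at 1.28, though Alas1 was at 0.68 with the median over its probes.

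A feature of the probes themselves went with the lower genes. Mammalian telomeres consist of a repeated unit that reads TTAGGG on one strand and CCCTAA on the other. The longest stretch of the repeated CCCTAA unit, begun at any of its letters, was measured in the 60 letters of every probe, and stretches of the other strand's unit TTAGGG served for contrast. This feature was noticed after the values were seen. Of genes whose probe held at most 4 such letters in a row, 4.25% were lower. The share was 6.38% at 5 letters, 11.7% at 6, 33.1% at 7, 47.3% at 8 and 61.4% at 9 or more (27 of 44 genes, with 0 higher). With 7 or more letters, 133 of 341 genes (39.0%) were lower and 7 higher, against 4.84% lower below 7 letters. For the other strand's unit the share at 7 or more letters was 3.41% (6 of 176).

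The 5 probes with the lowest cell-type differences among those with 8 or more letters are shown, followed by 2 probes of the other strand's unit. Each line gives 30 of the probe's letters, and capitals mark the stretch of repeat.
Vmn1r197: ttccggagttCCTAACCCTtggttatgcag
Stfa2: atcCCCTAACCCccattgtaaagagatgcg
Bmp3: gctcaaagtctACCCTAACatgacagtcga
Wfdc6b: gggAACCCTAACaacttcgaatctaaagct
Oxct2b: gtgaccttaattaaaAACCCTAACCtgaaa
Skint4: tgatGGGTTAGGGgattttgtgggtagaga
Spry2: tagAGGGTTAGGGgatttgtggtttgcagt
Vmn1r197, a vomeronasal receptor gene, had 163.3 (KO) and 189.0 (WT) in neutrophils and 128.4 (KO) and 14.9 (WT) in macrophages (probe at chr13:22420557-22420616, mm9), a cell-type difference of -3.50. Oxct2b, a testis enzyme of ketone metabolism, had 181.2 (KO) and 190.3 (WT) in neutrophils and 95.8 (KO) and 14.2 (WT) in macrophages (chr4:122795186-122795245), and was at -3.01. The growth factor gene Bmp3 (chr5:99308890-99308949) was at -3.04 and Wfdc6b (chr2:164442886-164442945) at -3.03. In each of these the WT macrophage array alone was low. The probe of Stfa2 (chr16:36404032-36404089), described with the stefins, holds 9 letters of the repeat and so counts in both sets. On the other strand Skint4 (chr4:111840593-111840652) was at -0.55 and Spry2 (chr14:106291845-106291904) at -0.21, neither past the rule. KO exceeded WT in macrophages by 1.13 for Skint4 and 0.75 for Spry2, and in neutrophils by 0.58 and 0.54. With TNFα their macrophage changes were 1.42 and 1.09. Over the 12 probes with 9 or more letters of this strand, the median macrophage change was 0.015, and 0.063 with TNFα.

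These probes were dimmest on the WT macrophage arrays. Over the 99 probes with 8 or more letters the median scaled log2 signal was -0.02 (KO) and 0.20 (WT) in neutrophils, -1.29 (KO) and -2.47 (WT) in untreated macrophages, and -0.70 (KO) and -2.80 (WT) with TNFα. Over the 45 probes with 8 or more letters of the other strand, they were 0.16 (KO) and 0.14 (WT) in neutrophils, 0.46 (KO) and 0.40 (WT) in untreated macrophages, and 0.39 (KO) and 0.42 (WT) with TNFα. At 9 or more letters the median KO minus WT was -0.10 in neutrophils, 1.73 in untreated macrophages and 2.39 with TNFα. The relation was found mostly among dim probes. Brightness was the mean over the same 4 arrays as the rule, and a low WT macrophage signal lowers it, so this split only describes. Below the median brightness of all genes 55.8% of 226 genes with 7 or more letters were lower, against 6.14% of 10182 with fewer letters, and above it 6.09% of 115 against 3.55% of 10292. The repeat was held by 11.8% of all lower genes, 1.1% of higher genes and 1.64% of genes tested. It was held by 25.8% of the lower genes that changed in macrophages alone (89 of 345). Leaving these probes out gave 629 higher and 990 lower genes. What the probes bound, and whether the named gene was measured by them, was not tested.

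**Figure D4:**
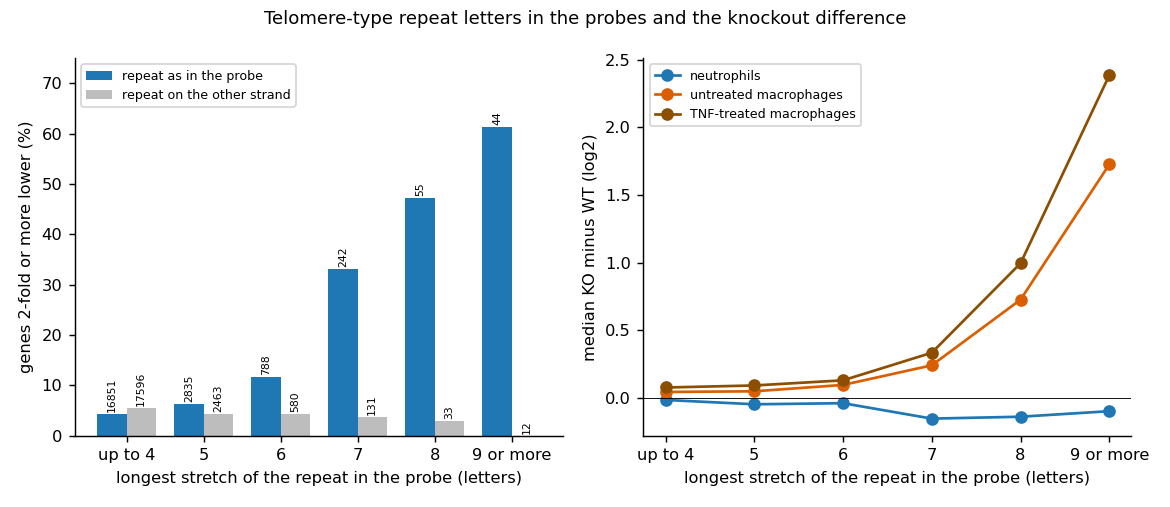
Left, percent of genes called lower (vertical axis) by the longest stretch of repeat letters in the probe (horizontal axis), for the unit as in the probe and for the other strand, with the number of genes above each bar, and right, median KO minus WT (log2) of the same genes in neutrophils and in macrophages without and with TNFα. The share called lower is 61.4% at 9 or more letters of CCCTAA, and the median moves in macrophages, to 1.73 and 2.39, but stays near 0 in neutrophils.

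Some genes changed alike in both preparations and therefore had a small cell-type difference. In 124 genes KO differed from WT 2-fold or more in the same direction in neutrophils and macrophages, 94 upward and 30 downward, and 103 of these were not past the rule. Lrg1, a secreted glycoprotein of neutrophils and liver, had 11582.2 (KO) and 2320.7 (WT) in neutrophils and 4469.4 (KO) and 1326.8 (WT) in macrophages, with a cell-type difference of 0.38. Vps16, a subunit of complexes that tether endosomes and lysosomes, had 616.6 (KO) and 3958.5 (WT) in neutrophils and 1300.6 (KO) and 7150.5 (WT) in macrophages, changes of -2.64 and -2.23. With TNFα the change was -2.17, and all 3 KO arrays stood below all 3 WT arrays. Rps4l, a ribosomal protein gene copy, was lower by about as much in both (-1.56 and -1.62). Ctse, an aspartic protease of endosomes, was higher in KO in both, by 2.62 and 4.30, and its cell-type difference of -1.68 was -0.88 with normexp correction and -0.96 against TNFα-treated macrophages. Acod1, which makes itaconate, was at 0.13, with a change of 1.23 in neutrophils and nearly as much in macrophages.

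Several functional groups had no member past the rule, where 3.06% of all genes were higher and 5.4% lower. Of 22 oxidative phosphorylation genes, 22 ribosomal protein genes, 12 housekeeping genes, 25 cell cycle genes and 20 IL-6 and STAT signalling genes, 0 were past the rule in either direction, and their medians were -0.32, -0.21, -0.19, 0.01 and 0.06. Of these, 22 of 22 oxidative phosphorylation genes and 12 of 12 housekeeping genes lay below 0, where the median of all genes was -0.08. Among the 5204 brightest genes the median was -0.14, and 4.05% were past the rule. Of 21 NF-kB and TNF signalling genes 1 was higher, the inhibitor-like regulator Nfkbiz at 1.26. Of 20 pattern recognition receptors 1 was higher, the beta-glucan receptor Clec7a at 1.28, and 1 lower, the mannose receptor Mrc1 at -1.26. Other groups held more. Adhesion and matrix genes had 4 of 17 higher, against 3.06% of all genes, and 1 lower, and the metalloprotease Adam8 was the highest at 1.58. Of 17 antigen presentation genes 3 were lower (H2-Ob, Cd86 and H2-Oa), 16 lay below 0 and the median was -0.62. Of 23 lysosomal genes 3 were lower, the proteases Lgmn, Ctsc and Ctsb between -1.19 and -1.04, and of these Ctsc was inside 2-fold with the median over probes and Lgmn and Ctsb with quantile normalization.

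**Figure D5:**
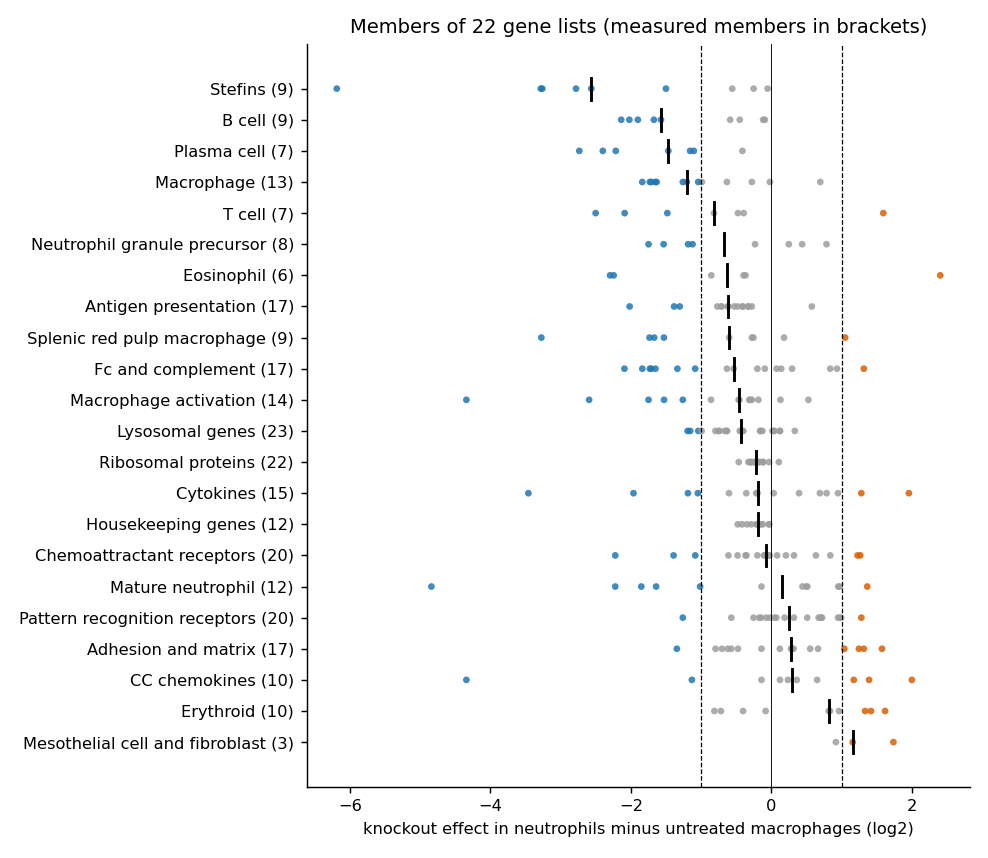
Cell-type difference (horizontal axis, log2) of each measured member of 22 gene lists, with the number of measured members in brackets, black bars at list medians, blue points at -1 or less, orange points at 1 or more and grey points between. Stefins, B-cell, plasma cell and macrophage markers have medians below -1, ribosomal and housekeeping genes stay between the dashed lines, and erythroid and mesothelial or fibroblast markers have the highest medians, 0.83 and 1.16.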

How the data were processed

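Each of 6 arrays held Cy3-labelled total RNA of 1 group. Per the file headers, the authors quantified the images with Agilent Feature Extraction 10.7.3.1, and the deposited spot intensity is on a linear scale, background-subtracted and not normalized between arrays. All arrays lay on 1 slide scanned in 1 run, and 0 spots were saturated. Probe coordinates in the files are on mm9.

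The deposited intensity was turned to log2, less each array's 75th percentile over gene probes (251.4 and 259.6 for KO and WT neutrophils, 482.8 and 566.9 for KO and WT macrophages). Of these arrays, 57.4% to 62.1% of probes lay well above background by the files' mark. Spots marked as outliers (101 to 121 per array) were left out and repeated spots averaged, giving 55681 probes, of which 28470 were well above background on all 4 arrays. A gene stood by its brightest such probe, and levels of different probes were not compared. Of the tested probes 16963 were named by accession, 1696 by symbol and 245 by synonym through RefSeq (GRCm38.p6), 3910 kept the file's name and 5656 were lincRNA probes. Probe letters came from the files.

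With 1 array per group there was no test, and precision is limited by the number of arrays. The software (Python 3.11.15, pandas 2.3.3, statsmodels 0.14.6, R 4.3.3, limma 3.58.1) was tested on simulated data.

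The rule named Steap4, Cxcr1, Cxcr2, Cxcl1, Cxcl2, Il6, Tnf and Il1b, the 15 largest differences each way among brighter genes with a RefSeq symbol other than a Gm, Rik, LOC or similar name, the 8 largest opposite and 6 largest same-way genes each way, and the 3 largest of each list each way. The comparison, the 48 lists (700 genes, 596 tested) and the rule were chosen with earlier results of these data known. List members beyond the rule (C1qb, Adgre1, Ly6g, Cst7, Cstdc4, Cstb, Cst3 and Ccl9), Ear genes, immunoglobulins and repeat-holding probes were named after their values were seen. Alternatives were quantile, median and spike-in scaling, normexp correction (offset 50), removal of the intensity trend, other filters on dim probes, the median over probes, outlier spots kept, and the TNFα-treated macrophage arrays.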

Additional observations from a re-analysis of the deposited data

Results flagged for a closer look

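These genes moved at least 2-fold in opposite directions in the 2 preparations. With 1 array per group, the difference was not tested. KO was higher in neutrophils and lower in macrophages for Acta2 (cell-type difference 2.92), Ccdc80 (2.78), Serpinh1 (2.13) and Cxcl12 (2.78). KO was lower in neutrophils and higher in macrophages for Stab2 (-5.50), Ccl24 (-4.34), Rnase2a (-2.83), Derl3 (-2.73) and Fcgrt (-2.58). With TNFα the macrophage change kept its direction in 10 of 10 measured opposite genes of the first kind and in 68 of 69 of the second. Of all 20179 genes measured with TNFα, 4738 had the other direction, but opposite genes were picked for a macrophage change of at least 2-fold. Among called genes with such a change in macrophages alone, 5 of 320 lower and 0 of 62 higher genes had the other direction. Keeping direction was thus not particular to the opposite genes. The opposite genes numbered 12 and 98, and the rest were not measured with TNFα. For Ccl24 the macrophage change was 0.46 with TNFα, under 2-fold, against 1.66 without.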

How the results depend on the processing

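No paired analysis was possible because each group had 1 array. The higher count of 636 was 246 with normexp correction, 1030 when 1 array of each cell type well above background sufficed, and 168 among brighter probes. The lower count of 1123 was 643 with normexp correction and 372 among brighter probes. The opposite count of 110 was 18, 198 and 38 under these 3 settings. Among settings chosen after seeing the data, leaving out genes 2-fold brighter on the WT neutrophil than on the WT TNFα-treated macrophage array gave 326 lower and 15 opposite genes. Leaving out genes that differed 2-fold between those arrays either way gave 275 higher, 200 lower and 6 opposite genes. Both filters read the WT neutrophil array, which the rule also uses. A high signal there lowers the cell-type difference, so these counts only describe. Leaving out the repeat-holding and the immunoglobulin probes together gave 66 opposite genes, with 629 higher and 928 lower. Quantile, median and spike-in scaling, trend removal, the median over probes, kept outlier spots and the TNFα-treated arrays moved these counts by less than 1.5 times, and the share of lower genes lay between 55.9% (spike-ins) and 72.3% (normexp). Siglec1 was past the rule and changed sign against TNFα-treated macrophages (-0.68), and the erythroid median changed sign among brighter probes (-0.24). Of values not past the rule, those that changed sign against TNFα-treated macrophages included Cxcl2 (1.35), Hbb-bt (2.15) and the CC chemokine (-0.24) and cytokine (0.13) medians. The cause was not tested for any. Against TNFα-treated macrophages Pparg (-0.81), Hdc (0.96), Nfkbiz (0.93) and Ptgs2 (0.80) were inside 2-fold as well, as were Xbp1 (-0.81) and Dnajb1 (-0.99) with quantile normalization, Il1b (-0.93) and Ltc4s (-0.96) with the same, and Car1 (0.87) and Ptgds (-0.35) with normexp correction. Of the 116 named genes past the rule, 101 kept their side and size with normexp correction, 109 with quantile normalization and 111 with spike-in scaling. The dim signals limit the fold sizes: normexp, which raises dim signals, lowered the share of repeat-holding probes called lower to 89 of 342, against 133 of 341, and 60 of 67 immunoglobulin probes were still lower.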

Other observations

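T-cell genes did not move as one. Cd3d, a chain of the T-cell receptor complex, had 747.1 (KO) and 117.6 (WT) in neutrophils and 129.8 (KO) and 70.1 (WT) in macrophages, and was at 1.59. Cd247 and Cd3g, chains of the same complex, were at -2.50 and -1.48 through the macrophage change, and Cd3g was inside 2-fold with normexp correction. Cd28, a costimulatory receptor, was at -2.09 through the neutrophil change. The T-cell markers had 1 of 7 higher and 3 lower, with a median of -0.82. The summed scaled signal of the 10 on the array was 27.2 (KO) and 31.3 (WT) in neutrophils. In macrophages it was 16.5 (KO) and 14.9 (WT).

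Eicosanoid enzymes, which make lipid mediators from arachidonic acid, had 1 of 13 higher, the cyclooxygenase Ptgs2 at 1.29, and 3 lower, Tbxas1, the thromboxane synthase, at -1.39, Ltc4s at -1.05 and Ptgds at -1.01. The iron-binding granule protein Lcn2 had 18403.4 (KO) and 8597.4 (WT) in neutrophils and 2003.0 (KO) and 367.8 (WT) in macrophages, and was at -1.53. It was among 4 of 8 granule precursor genes that were lower, with 0 higher and a median of -0.68. Platelet, natural killer and mast cell markers had 0 of 5, 0 of 4 and 0 of 3 past the rule. Of all genes 3.06% were higher and 5.4% lower, so lists this small say little.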
